A study of Apis mellifera with 6 samples.

Results

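The genes described here are the cytoplasmic ribosomal protein genes of the honey bee, as far as the count tables name them by symbol. They were chosen by name alone: gene symbols that start, in any case, with RpL or RpS and go on with a digit, P or A, without the leading m of mitochondrial members. Of the 10151 listed genes, 6 chosen in this way are described. The 5 genes of the large ribosomal subunit were RpL32, RpL35, Rpl39, Rpl41 and RpLP1, and the gene of the small subunit was Rps14. A ribosome holds many more proteins than these, and ribosomal protein genes that the tables list under numeric LOC identifiers were not analysed here.

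The libraries were made from poly(A)-selected RNA of Apis mellifera midguts, with 1 midgut of 1 bee in each library. There were 3 libraries from bees kept at 35 °C and 3 from bees kept at 45 °C. The labels give both groups sucrose solution with 0.5% DMSO and a time of 4 h. The bees were adults caught at the landing board of outbred colonies, so their age is not given. The labels mark all 3 libraries at 35 °C, and none at 45 °C, as re-analysed duplicates of earlier sample records. Temperature and this difference in origin therefore cannot be told apart. The study's methods also describe control bees fed DMSO for a longer time than 4 h in the other experiments, which leaves the feeding time of the 35 °C libraries uncertain.

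Ribosomal proteins assemble with ribosomal RNA in the nucleolus into a small subunit, which reads the mRNA, and a large subunit, which joins amino acids and lets the new chain out through an exit tunnel. Their mRNAs are among the more abundant ones in most animal cells, and the proteins are needed in fixed proportion to each other. In flies and mammals heat shock is known to reduce the translation of most mRNAs while the mRNAs of heat shock proteins are translated. Counts of poly(A) RNA measure mRNA levels and not translation. RpL32, also called Rp49, is widely used in insects as a reference gene for quantitative PCR.

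Reads on listed genes ran from 23305758 to 26279130 per library at 35 °C and from 24690115 to 26921417 at 45 °C. The deposited values, called normalized counts here, are gene counts divided by a size factor for each library, and they are not corrected for gene length. As the files give no transcript length, levels were compared between libraries and never between genes. Each ribosomal protein gene had between 2631 and 20306 reads in each library, so counting error was small beside the spread between bees. Of the tissue markers that carry a symbol, none was at 0 in any library. Summed over the list, 7 troponin genes of muscle had 4676 to 7647 normalized counts at 35 °C and 5869 to 7069 at 45 °C, with 2 of the 7 lower at an adjusted p below 0.05 from limma. The 3 royal jelly protein genes had 1426 to 2712 and 1293 to 2199. The 5 fat body genes (vitellogenin and hexamerins) had 643 to 834 normalized counts at 35 °C and 923 to 1405 at 45 °C, with 2 of the 5 higher and 1 lower at an adjusted p below 0.05 from limma. The proton pump gene Vha16 was the only gene of the midgut list with a symbol. It had 6483 to 6915 normalized counts at 35 °C and 3292 to 5330 at 45 °C (limma adjusted p = 0.0508). This gene alone does not measure the share of midgut cells. The part of these cell types in the results was not tested.

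None of the 6 ribosomal protein genes was past the threshold of the study, an adjusted p below 0.05 with an absolute log2 fold change above 1, at 45 °C against 35 °C. Over all listed genes, 18.0% were past it in limma's test on log2(normalized count + 1) with Benjamini-Hochberg adjustment. Without a minimum fold change the count was also 0 of 6, where 39.3% of all genes had an adjusted p below 0.05. Their lowest adjusted p was 0.121, for Rps14. At an unadjusted p below 0.05 the count was again 0 of 6 with limma, against 48.8% of all genes, and it was 0 with edgeR (48.8% of all genes) and with DESeq2 (48.7%) on reads recovered from the values. At an adjusted p below 0.05, where edgeR called 39.1% and DESeq2 41.7% of all genes, both also called 0 of the 6. The fold changes were small, with 95% intervals from limma that lay between 0.762-fold and 1.59-fold for every member. A change of 2-fold thus lay outside the interval of each of them on the scale of the deposited values. In a bulk midgut, fewer cells of a type and less RNA per cell cannot be told apart.

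Rps14 encodes a protein of the platform of the small subunit. It had 10634, 13562 and 13385 normalized counts in replicates 1 to 3 at 35 °C, and 14545, 15710 and 16497 at 45 °C. Each library at 45 °C was above each at 35 °C, and 35 °C replicate 1 was the lowest of all. The means were 12527 ± 1642 and 15584 ± 982 (SD, n = 3 each). At 45 °C over 35 °C this was a log2 fold change of 0.32 (SE, the standard error, 0.15, with a 95% interval from -0.02 to 0.67, limma adjusted p = 0.121). Without 35 °C replicate 1 it was 0.21. Rps14 had the highest log2 fold change of the 6 genes under each of the 20 settings run, the 19 alternatives among them, although with library size alone that value was -0.06. Many of these settings scale all genes of a library alike or leave the fold changes as they were. Those settings could not change the order of the 6 genes.

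RpLP1 is a protein of the acidic stalk of the large subunit, which recruits elongation factors. It had 14125, 17183 and 16989 normalized counts at 35 °C and 17518, 17714 and 19322 at 45 °C. The groups did not overlap, but the highest library at 35 °C and the lowest at 45 °C were close. Means of 16099 ± 1712 and 18185 ± 989 (SD, n = 3 each) gave a log2 fold change of 0.18 (SE 0.14, 95% interval from -0.15 to 0.51, limma adjusted p = 0.344), which was 0.089 without 35 °C replicate 1. Rps14 and RpLP1 were the 2 of 6 genes whose groups were apart, both higher at 45 °C. Over all genes 53.2% had groups apart in either direction, and 26.8% in this direction. For a gene with such groups the exact permutation test, 2-sided, gives p = 0.1, and 3 libraries against 3 allow no smaller p.

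**Figure D1:**
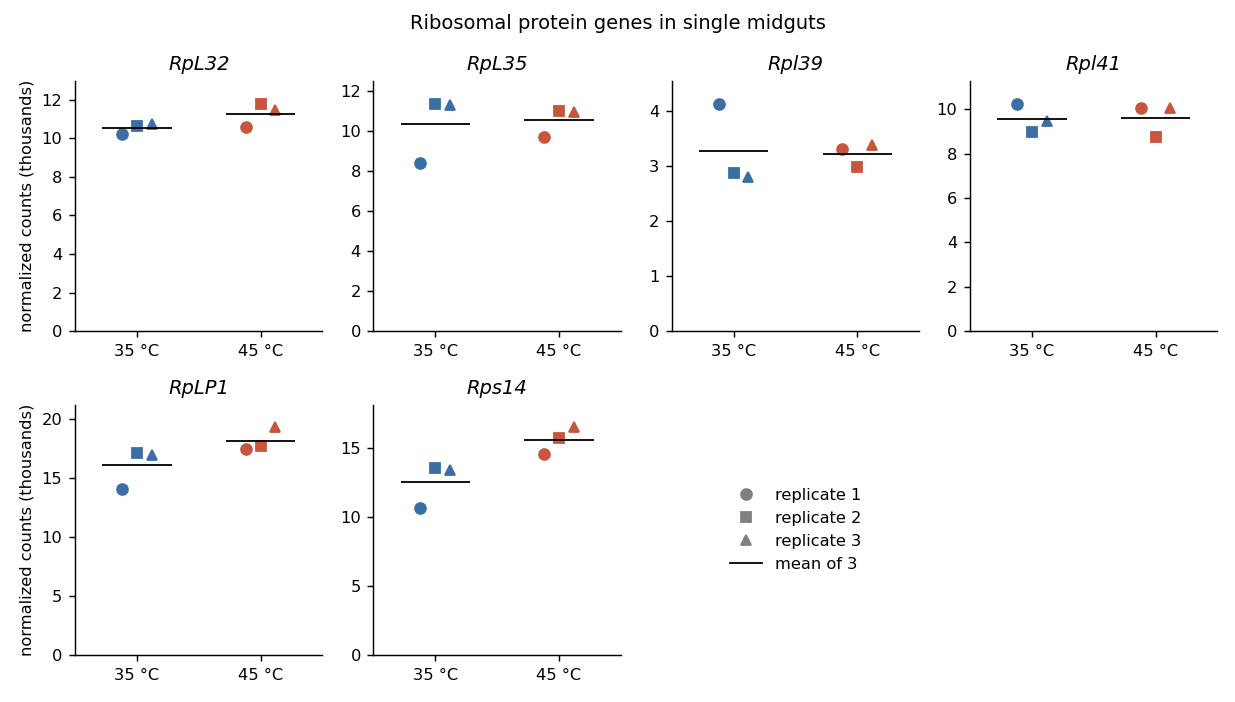
Normalized counts (vertical axes from 0) of the 6 ribosomal protein genes in each library at 35 °C (blue) and 45 °C (red); symbols mark the replicate number and lines the mean of 3. The groups are apart for RpLP1 and Rps14 and overlap for the other 4 genes, and 35 °C replicate 1 is lowest for Rps14, RpLP1, RpL35 and RpL32 but highest for Rpl39 and Rpl41.

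RpL32, the usual reference gene, had the smallest SD of the members over both temperatures. Its normalized counts were 10204, 10639 and 10711 at 35 °C and 10553, 11779 and 11478 at 45 °C. The coefficient of variation was 2.61% at 35 °C and 5.67% at 45 °C, where that of RpLP1 was smaller at 5.44%. Only 1.80% of all genes had a smaller SD between bees of the same temperature on the log2 scale of normalized counts. That comparison took in genes of every level, and genes with counts like those of RpL32 were not compared apart. The groups overlapped, and the log2 fold change was 0.10 (SE 0.12, 95% interval from -0.18 to 0.37, limma adjusted p = 0.539). In reads per 1000000 listed reads, a scale without size factors, RpL32 had 470, 478 and 489 at 35 °C and 337, 420.0 and 426 at 45 °C, and there the groups were apart with 45 °C lower. The direction of the difference of this gene between temperatures was thus set by the scaling.

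RpL35 lies near the end of the exit tunnel. It had 8400.0, 11340.0 and 11280 normalized counts at 35 °C and 9663, 10966 and 10906 at 45 °C. All 3 values at 45 °C fell inside the range of the 3 at 35 °C. Its log2 fold change of 0.04 (SE 0.16, limma adjusted p = 0.882) became -0.11 without 35 °C replicate 1.

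Rpl39, a very short protein that lines the exit tunnel, had 4137, 2883 and 2800 normalized counts at 35 °C and 3315, 2989 and 3388 at 45 °C. Here 35 °C replicate 1 was the highest library, the reverse of its place for Rps14, RpLP1 and RpL35. Its coefficient of variation was 22.9% at 35 °C, the largest of the 6, and 6.59% at 45 °C. The log2 fold change of 0.00 (0.003 before rounding, SE 0.17, limma adjusted p = 0.993) changed to 0.18 without 35 °C replicate 1 and to -0.10 without 35 °C replicate 3.

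Rpl41, among the smallest proteins known in eukaryotes, sits between the subunits. Its normalized counts of 10244, 8976 and 9482 at 35 °C and 10068, 8741 and 10041 at 45 °C covered nearly the same range. The log2 fold change was 0.01 (SE 0.13, 95% interval from -0.29 to 0.30, limma adjusted p = 0.974). Rpl39 and Rpl41 were thus the 2 members with the smallest differences on the size factor scale, and only 0.355% and 0.857% of all genes had a smaller absolute log2 fold change.

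The direction of the members as a group depended on how the libraries were put on a common scale. With size factors all 6 log2 fold changes from limma were above 0, and their median was 0.07, against -0.01 for all genes. With DESeq2 and edgeR 5 were above 0, and Rpl39 was just below. With library size alone all 6 were below 0, with a median of -0.32, and the median of all genes moved to -0.39. Quantile normalization left 1 above 0 and 5 below, with a median of -0.14 against -0.15 for all genes. Relative to the median of all genes, the members' median stood 0.07 higher with size factors and with library size alone, and 0.02 higher after quantile normalization. None of the 6 had an adjusted p below 0.05 under any of these scalings, the lowest being 0.0535 for Rpl41 with library size alone. With library size alone the 95% intervals of the 6 genes ran from 0.573-fold to 1.25-fold, so a 2-fold change lay outside them there too.

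**Figure D2:**
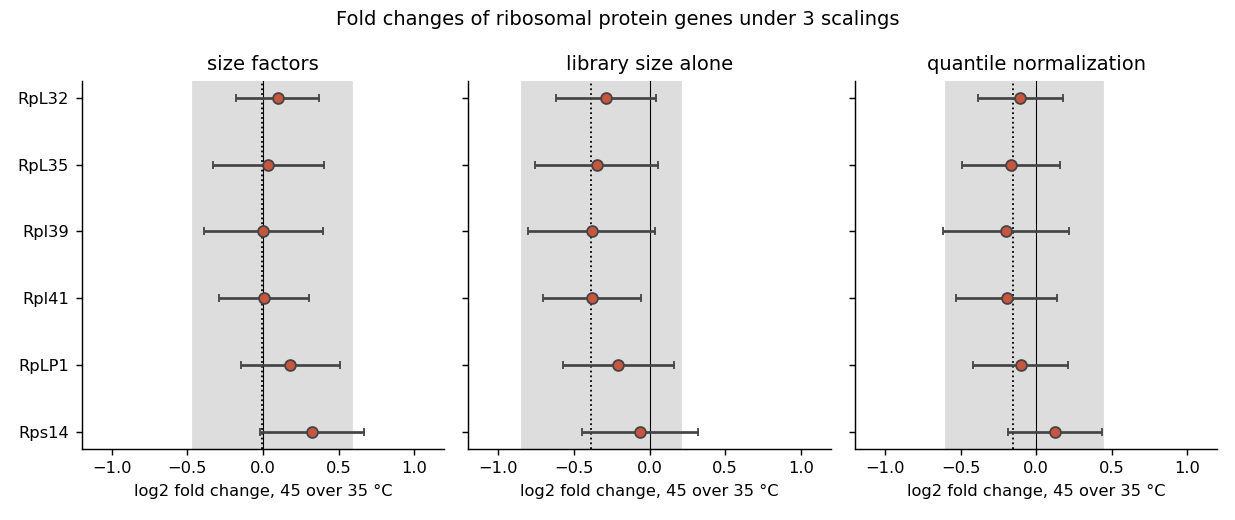
Log2 fold changes at 45 °C over 35 °C (horizontal axis) of the 6 genes with 95% intervals from limma, under size factors, library size alone and quantile normalization; the grey band is the middle 50% of all genes and the dotted line their median. All 6 points lie inside the grey band in each panel, and they move from above 0 to below 0 between the first and second panel together with the median of all genes, from -0.01 to -0.39.

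As a share of the reads on listed genes, the 6 members together took 0.266%, 0.290% and 0.295% at 35 °C and 0.210%, 0.242% and 0.266% at 45 °C. The means were 0.284 ± 0.0158% and 0.239 ± 0.0281% (SD, n = 3 each), and the groups overlapped by a small margin, as 45 °C replicate 3 was just above 35 °C replicate 1. The 5 large subunit genes alone took 0.217%, 0.229% and 0.234% at 35 °C and 0.163%, 0.186% and 0.205% at 45 °C, so each library at 45 °C was below each at 35 °C. Rps14 took 0.0489%, 0.0610% and 0.0611% against 0.0465%, 0.0560% and 0.0613%, and overlapped. On this scale 3 of the 6 genes had groups apart, all lower at 45 °C (RpL32, Rpl39 and Rpl41), where 59.8% of all genes were apart and 44.1% were lower in this way.

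Such a share falls when other genes take more of the reads. The 20 genes with the highest mean, none of them a member, took 34.8 ± 0.977% of listed reads at 35 °C and 39.8 ± 3.27% at 45 °C (SD of 3 libraries), and these groups were apart. Out of the reads on the remaining genes, the 6 members took 0.435 ± 0.0191% at 35 °C and 0.397 ± 0.0303% at 45 °C (SD of 3 libraries), and the groups overlapped. Summed in normalized counts, they had 57744, 64583 and 64646 at 35 °C and 65663, 67899 and 71631 at 45 °C. By this last measure 45 °C was the higher side, with groups apart and a ratio of means of 1.1, while the share of all reads gave a ratio of 0.844. In normalized counts the large subunit genes alone overlapped, with a ratio of 1.06, and Rps14 was apart, with 1.24. The summed level of the members thus had no direction that held on both scales.

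**Figure D3:**
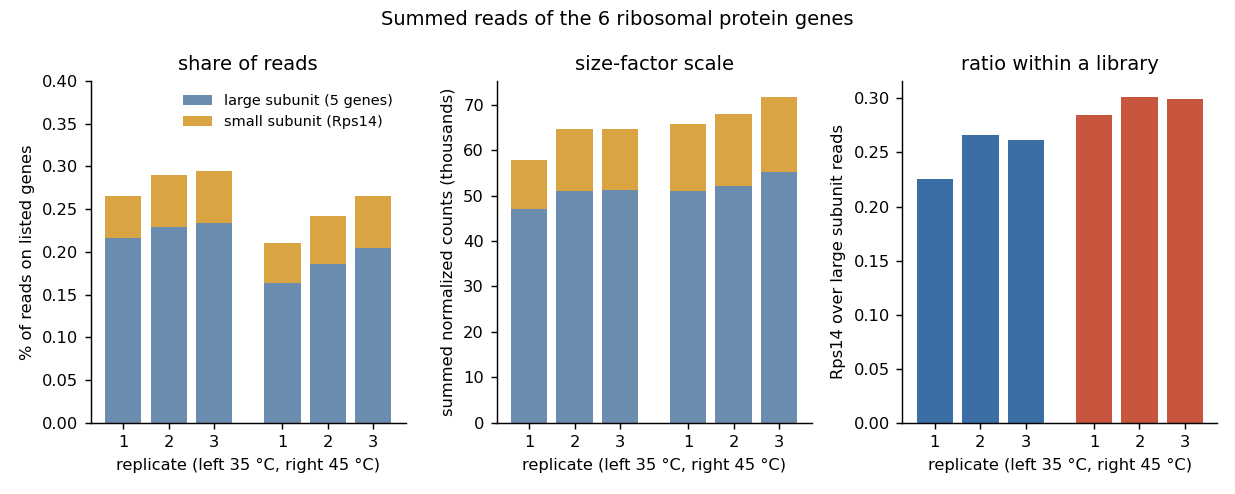
Summed reads of the 5 large subunit genes (blue) with Rps14 of the small subunit on top (yellow) in each library, as % of reads on listed genes (left) and in normalized counts (middle), and the ratio of Rps14 reads to large subunit reads (right, blue bars 35 °C, red bars 45 °C). The share of all reads has a mean of 0.284% at 35 °C and 0.239% at 45 °C, the summed normalized counts go the other way, and each ratio at 45 °C is above each at 35 °C.

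Ratios between members within a library do not depend on the scaling of that library. The reads of Rps14 over those of the 5 large subunit genes came to 0.226, 0.266 and 0.261 at 35 °C and to 0.285, 0.301 and 0.299 at 45 °C. The groups were apart, with means of 0.251 ± 0.0219 and 0.295 ± 0.00903 (SD, n = 3 each), and the lowest value was that of 35 °C replicate 1. The log2 fold change of Rps14 stood 0.29 above the median of 0.04 of the large subunit genes. Without 35 °C replicate 1 this difference was 0.13, as Rps14 fell to 0.21 and the median gene changed from RpL35 to RpL32. The log2 ratio of Rps14 over large subunit reads, 45 over 35 °C, fell less, from 0.23 to 0.16. As a single gene stood for the small subunit, the subunits as such were not compared.

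Of the 15 pairs of members, 3 had ratios that were apart between the temperatures, against 50.5% of all pairs of listed genes. In each of the 3 a large subunit gene was lower relative to Rps14 at 45 °C. RpL35 over Rps14 stood at 0.790, 0.836 and 0.843 at 35 °C and at 0.664, 0.698 and 0.661 at 45 °C, the widest gap between groups among the 3. The difference of the log2 ratio at 45 °C minus 35 °C was -0.29, and it ran from -0.32 to -0.27 with 1 library left out. RpL32 over Rps14 and RpLP1 over Rps14 differed by -0.22 and -0.14 on the log2 scale. RpL32 over Rps14 came to -0.13 without 35 °C replicate 1. For each of these pairs the exact permutation test gave p = 0.1, the smallest possible, and all share Rps14. Expressed as a part of the members' own reads, Rps14 took 18.4%, 21.0% and 20.7% at 35 °C and 22.2%, 23.1% and 23.0% at 45 °C. It was the only member whose part was apart between the groups. This part rests on the same reads as the ratios above, and no share over all genes was worked out for such a measure.

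The members did not all deviate the same way between bees of the same temperature. In 35 °C replicate 1 the log2 deviation from the mean of the 3 libraries at 35 °C was -0.29 for RpL35, -0.23 for Rps14, -0.18 for RpLP1 and -0.04 for RpL32, but 0.36 for Rpl39 and 0.10 for Rpl41. At 45 °C, replicate 1 also had the first 4 genes below and Rpl39 and Rpl41 above their means, by smaller amounts between -0.12 and 0.07. This split did not hold in the other libraries at 45 °C, as RpLP1 was below its mean with Rpl39 and Rpl41 in replicate 2 and all 6 genes were above their means in replicate 3. The split was seen in the values and is a description without a test. The coefficient of variation was larger at 35 °C than at 45 °C for 4 of the 6 genes, RpL32 and Rpl41 being the exceptions. All 6 genes had a smaller log2 SD of normalized counts between bees than the median of all genes of every level, with Rpl39 closest to it.

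**Figure D4:**
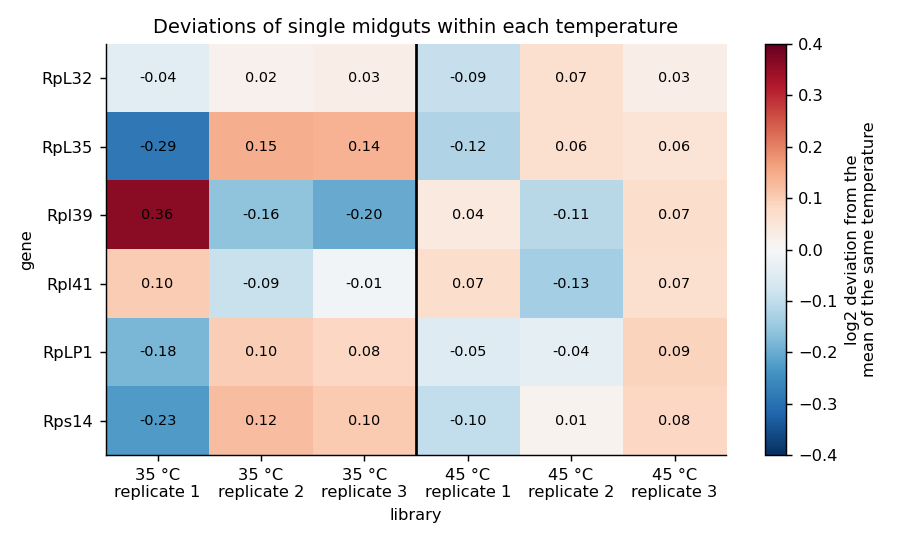
Log2 deviation of each gene (rows) in each library (columns) from the mean of the 3 libraries of the same temperature, with red above and blue below the mean. In 35 °C replicate 1 the values run from -0.29 for RpL35 to 0.36 for Rpl39.

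Other genes of translation with a symbol in the tables were few. They were mRpL16, a protein of the mitochondrial large subunit, IF-2mt, the mitochondrial initiation factor, Ef-1a-f1 and EF1a-F2, which encode elongation factors that bring aminoacyl-tRNA to the ribosome, and the cytoplasmic initiation factor genes Eif3h and Eif4g. Of these 6 genes, 2 had an adjusted p below 0.05 from limma, both mitochondrial and both lower at 45 °C. Over all genes 39.3% were called by this rule in either direction, and 18.2% were called lower. A list of 6 genes is too short to compare its part with these. This list was put together from symbols after the tables had been seen.

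For mRpL16 the normalized counts fell from 876, 981 and 1027 at 35 °C to 527, 545 and 618 at 45 °C, a log2 fold change of -0.77 (SE 0.13, limma adjusted p = 0.00350). IF-2mt fell from 1466, 1361 and 1395 to 412, 566 and 552, a log2 fold change of -1.48 (SE 0.15, limma adjusted p = 4.70e-04), past the threshold of the study.

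The elongation factor gene EF1a-F2 had 82573, 92078 and 91662 normalized counts at 35 °C and 135534, 121301 and 111060.0 at 45 °C. Its groups were apart with 45 °C higher, and its log2 fold change was 0.46 (SE 0.20, limma adjusted p = 0.10). With DESeq2 its adjusted p was 0.00498. It was also called higher by limma without a trend (adjusted p = 0.0441) and by limma on genes with a mean of at least 100 (0.0492). By edgeR with TMM factors and no filter the adjusted p was 0.04999. Its log2 fold change was 0.077 with library size alone and 0.19 with library size without the 20 highest genes. Only after quantile normalization was it below 0, at -0.68 (limma adjusted p = 0.0194). Eif3h, a subunit of the initiation complex on the small subunit, had 2408, 1867 and 1936 normalized counts at 35 °C and 1783, 1304 and 1549 at 45 °C (log2 fold change -0.42, SE 0.16, limma adjusted p = 0.0705). Its groups were apart with 45 °C lower, and limma called it with the replicate block (adjusted p = 0.0297), library size alone (0.00430), library size without the 20 highest genes (0.0129) and quantile normalization (0.0280). Eif4g, the scaffold of the cap-binding complex, had a log2 fold change of -0.12 (SE 0.15, limma adjusted p = 0.567), and Ef-1a-f1 one of 0.55 (SE 0.28, limma adjusted p = 0.164). Without 35 °C replicate 1 the value of Ef-1a-f1 was 0.20, and that of Eif4g ran from -0.24 without 45 °C replicate 1 to -0.0049 without 45 °C replicate 2.

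**Figure D5:**
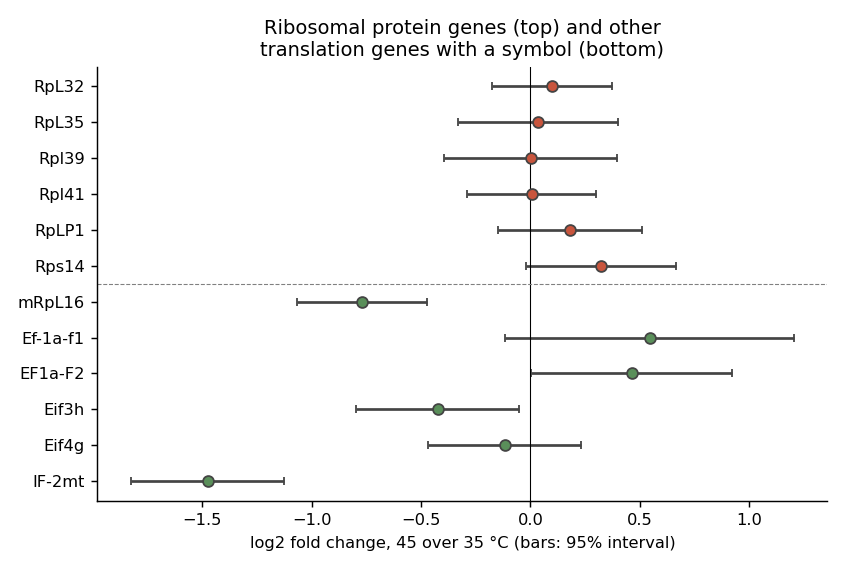
Log2 fold changes at 45 °C over 35 °C (horizontal axis, size factor scale) with 95% intervals from limma for the 6 cytoplasmic ribosomal protein genes (red, above the dashed line) and 6 other translation genes with a symbol (green). All 6 ribosomal protein intervals include 0, those of mRpL16 (-0.77), IF-2mt (-1.48) and Eif3h (-0.42) lie below 0, and that of EF1a-F2 (0.46) lies just above 0.

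By the RefSeq gene table of Amel_HAv3.1, an assembly other than that of the counts, 3 of the 6 members overlap another gene. CTL5, which overlaps RpL35, had a mean of 113 normalized counts at 35 °C and 125 at 45 °C. LOC413400, which overlaps Rps14, had 245 and 155. LOC413121, which overlaps Rpl39, had 694 and 876, the most of the 3 beside its member. The sources used here do not say how reads in such an overlap were counted or whether strand was used.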

How the data were processed

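Trimming, mapping to the NCBI honey bee genome build of that time and counting per gene were done by the authors. The submitters' processing notes name Trimmomatic 0.36, STAR, Subread and DESeq2. The sources used here give neither the annotation release nor the use of strand. The deposited values are a signal made by the authors from gene counts, each divided by its library's size factor, in 3 tables of 2 libraries each. All values (100%, within 0.01 of a read) were whole multiples of 1 step per column, so reads could be recovered. Size factors recomputed from them over the 6 libraries equalled those of the files, and values were therefore compared across tables.

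Libraries were grouped by temperature and numbered from the sample labels. Log2(value + 1) of the 10151 genes, all with a mean of at least 1, was fitted by temperature with limma 3.58.1 (moderated variances with a mean trend, R 4.3.3) and no block, and p-values were adjusted over all genes (Benjamini-Hochberg). Adding 1 hardly matters at the members' counts. DESeq2 1.42.0 and edgeR 4.0.16 on the recovered reads, other scalings, pseudocounts and filters, limma without a trend, a replicate block and each library left out were alternatives. The limma fit with a trend, DESeq2 and edgeR with TMM factors were checked on simulated reads with as many genes raised as lowered. The permutation test and the other settings were not checked in this way. P-values set the difference between the groups against the spread between these bees only. That difference holds temperature and the origin of the libraries together. Libraries of a temperature differed by more than sampling noise (mean chi-square per gene of at least 44.4).

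The members and lists were chosen with earlier results of these data known. Of the 7 genes found by the rule, 1 is not reported here and entered no count, sum or median of the members, while the fits and adjustments covered all genes. The other 6 are all named, by the rule for named genes. Lists that needed gene descriptions, searches of promoters and levels per coding length were not run. The gene table used here (RefSeq, Amel_HAv3.1, with 9300 of 10151 IDs and 6 of 6 members found) gives names and positions. It holds no gene descriptions and no promoter or protein sequences. The lists of translation genes and tissue markers hold only genes with a symbol.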

Additional observations from a re-analysis of the deposited data

How the results depend on the processing

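None of the 6 ribosomal protein genes was past the threshold, or had an adjusted p below 0.05, under any of the 19 alternatives, of which edgeR with TMM factors and without its filter was added after the data had been seen. At an unadjusted p below 0.05, 1 gene of the 6 was called with library size alone (Rpl41, limma adjusted p = 0.0535) and 1 with the replicate block (Rps14). The share of all genes called in this way under these settings was not worked out, so the counts cannot be read against it. The signs followed the scaling. The median log2 fold change of the 6 genes, 0.07, was -0.32 with library size alone, -0.20 with library size without the 20 highest genes and -0.14 after quantile normalization. For the large subunit, 0.04, these were -0.35, -0.23 and -0.17. The log2 ratio of the summed share at 45 °C over 35 °C was reversed with size factors only, to 0.13.

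For single genes, library size alone gave -0.29 for RpL32, -0.35 for RpL35, -0.38 for Rpl39, -0.38 for Rpl41, -0.21 for RpLP1 and -0.064 for Rps14. Library size without the 20 highest genes gave -0.17 for RpL32, -0.23 for RpL35, -0.27 for Rpl39, -0.26 for Rpl41 and -0.089 for RpLP1. Quantile normalization gave -0.11 for RpL32, -0.17 for RpL35, -0.20 for Rpl39, -0.19 for Rpl41, -0.10 for RpLP1 and, outside the members, -0.68 for EF1a-F2. Rpl39 was also below 0 with DESeq2 (-0.019), edgeR with TMM factors (-0.018), the same without a filter (-0.021) and edgeR with RLE factors (-0.016). The median of all genes was -0.39 with library size alone, -0.27 with library size without the 20 highest genes and -0.15 after quantile normalization.

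With 1 library left out the median of the 6 genes ran from 0.046 to 0.12 and that of the large subunit from 0.0073 to 0.11. The log2 fold change of Rps14 minus that median ran from 0.13 to 0.28, the log2 ratio of Rps14 over large subunit reads from 0.16 to 0.28, and that of the summed share from -0.33 to -0.16. RpL32 ran from 0.066 to 0.14, RpLP1 from 0.089 to 0.23, Rps14 from 0.21 to 0.38, RpL35 from -0.11 to 0.11, Rpl39 from -0.10 to 0.18 and Rpl41 from -0.038 to 0.074.

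Of the 6 other translation genes, 2 had an adjusted p below 0.05, and 4 with library size alone and with quantile normalization. The labels do not say whether bees with the same replicate number were paired. The deviations of libraries with the same number correlated over genes at 0.154, 0.0164 and 0.00538. Those of libraries with different numbers correlated at -0.112 to 0.115. With 3 libraries a group these values do not settle whether the bees were paired. With the replicate block 0 of the 6 genes passed, and the lowest adjusted p was 0.0994 for Rps14. The share with ribosomal protein genes under LOC identifiers added was not run. With 3 bees a group, differences inside the interval given for each gene were not excluded. The smallest difference that could be detected was not worked out.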

Other observations

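The nearest genes on both sides of each ribosomal protein gene were looked up in the RefSeq table of Amel_HAv3.1, leaving out overlapping genes, and all 12 were listed in the count tables. Of these, 2 were higher and 4 lower at 45 °C at an adjusted p below 0.05 from limma, against 39.3% of all genes in either direction. The lowest was LOC412328 beside RpLP1, with a log2 fold change of -0.96 (limma adjusted p = 0.00231), from 1630.1 to 842 normalized counts on average. LOC409385 beside RpL32 had 181 and 301, a log2 fold change of 0.73 (limma adjusted p = 0.0134). LOC551560, on the other side of RpL32, had the highest log2 fold change of the 12 at 0.98, with an adjusted p of 0.274 from limma. These neighbours were looked up after the values of the members had been seen.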
